A study of Mus musculus with 12 samples.

Results

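The genes of MHC class II antigen presentation and their transactivator were examined in the inflamed mouse colon. The members were taken by symbol: the chain genes H2-Aa, H2-Ab1 and H2-Eb1, the peptide-loading genes H2-DMa, H2-DMb1 and H2-DMb2, the H2-O genes H2-Oa and H2-Ob, the invariant chain gene Cd74 and the transactivator gene Ciita. All 10 were found among the 21899 genes of the table, and all 10 passed the low-count filter and were among the 14393 tested. RNA was sequenced from colon tissue of 12 mice that had received 2.5% dextran sulfate sodium (DSS), a polymer that damages the colon lining, for 7 days. In 6 of them Pck1, the cytosolic phosphoenolpyruvate carboxykinase, had been deleted in intestinal epithelial cells (genotype CKO, here the knockout), and 6 were littermate controls (WT). Every mouse of both groups had received DSS, and the sources used here give no Cre driver, strain, age or sex. The comparison asks how the injured colon differs when its epithelium lacks Pck1.

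MHC class II molecules are pairs of an alpha and a beta chain that show peptides of material taken up by the cell to CD4+ T cells. New chains bind the invariant chain, which blocks the groove on the way to the endosome, and H2-M then helps to exchange the remaining fragment for a peptide, while H2-O restrains H2-M. Ciita is a coactivator without DNA binding of its own that is recruited by RFX, CREB and NF-Y factors to the X, X2 and Y boxes of these promoters. Dendritic cells, B cells and many macrophages carry class II at steady state, and interferon gamma can bring it out in the gut epithelium.

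Libraries held between 15348192 and 19138507 counts, and levels are given as CPM, counts scaled to a common library size with TMM. Pck1 itself checked the labels, with 2.28 to 7.32 CPM in the knockout libraries and 34.5 to 84.7 CPM in the control libraries. The 12 epithelial marker genes, among them Muc2 and Krt8, had at least 1 read in every library. The same held for the 14 B cell and the 15 macrophage and monocyte markers, so each library held RNA of both epithelium and immune cells. In such bulk tissue, fewer cells of a type and less RNA per cell cannot be told apart.

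Promoter sequences are shown because the boxes that recruit Ciita lie there. RefSeq promoter windows (GRCm38.p6, 250 bases before to 50 bases after a gene's start) matched 7 of the 10 members; H2-Ab1, Cd74 and Ciita are named only. For 6 of them, all on chromosome 17, the stretch around the boxes is printed 5′ to 3′ on the gene's strand, with capitals marking the Y box core and those X and X2 cores that lie 10 to 40 bases ahead of it, and other matches left in lower case. The cores searched were GCAAC for the X box, TGANG for the X2 box (N is any base) and ATTGG, the reverse complement of CCAAT, for the Y box.
H2-Aa: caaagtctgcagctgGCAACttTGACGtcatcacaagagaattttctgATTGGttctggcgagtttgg
H2-Eb1: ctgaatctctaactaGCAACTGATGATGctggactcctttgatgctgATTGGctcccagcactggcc
H2-Ob: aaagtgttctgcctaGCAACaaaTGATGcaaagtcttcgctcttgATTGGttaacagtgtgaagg
H2-Oa: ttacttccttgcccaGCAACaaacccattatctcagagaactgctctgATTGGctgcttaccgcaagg
H2-DMb1: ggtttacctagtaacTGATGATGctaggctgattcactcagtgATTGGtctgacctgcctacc
H2-DMb2: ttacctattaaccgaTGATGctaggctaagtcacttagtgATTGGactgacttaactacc
The stretches lie at chr17:34287852-34287919 on the minus strand for H2-Aa and, on the plus strand, at chr17:34305761-34305827 for H2-Eb1, chr17:34238803-34238867 for H2-Ob, chr17:34092288-34092355 for H2-Oa, chr17:34153087-34153149 for H2-DMb1 and chr17:34145119-34145178 for H2-DMb2.

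In these windows the Y core began between 43 bases (H2-Oa) and 90 bases (H2-DMb2) before the start. The chain genes H2-Aa and H2-Eb1 and the gene H2-Ob carried all 3 cores. H2-Oa carried GCAAC but no TGANG 10 to 40 bases ahead of ATTGG, and both H2-DMb genes carried TGANG without GCAAC. The pair of GCAAC followed by ATTGG after 10 to 40 bases was present in 1.43% of all 32851 promoter windows on either strand, and TGANG followed by ATTGG at the same spacing in 6.25%. Alone, the cores are common, with ATTGG in 37.4%, GCAAC in 35.2% and TGANG in 89.4% of windows. TGANG can overlap itself, as in H2-DMb1, and it abuts GCAAC in H2-Eb1. Neither of the 2 windows of H2-DMa held such a spaced pair of cores. A match describes letters only, and the cores were chosen with these sequences in view.

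Per length, the members spanned a wide range of levels in the control colon, given here as the authors' TPM (mean ± SD, n = 6). Cd74 was highest at 1873 ± 308 TPM, followed by H2-Aa at 967 ± 168, H2-Ab1 at 684 ± 105 and H2-Eb1 at 391 ± 56.1 TPM. In each of the 12 libraries these 4 genes stood in this order. H2-DMb1 (87.2 ± 10.8 TPM) and H2-DMa (70.9 ± 13.2 TPM) came next, and their order held in 10 of 12 libraries, with overlapping ranges. The levels of Ciita at 16.0 ± 2.26 TPM and H2-DMb2 at 10.6 ± 3.19 TPM likewise overlapped, as did those of H2-DMb2 and H2-Oa and those of H2-Oa (5.58 ± 1.39 TPM) and H2-Ob (mean 4.22 TPM). Neighbours in this order were free of overlap in both genotypes only from H2-Eb1 to H2-DMb1 and from H2-DMa to Ciita. Summed, the 10 genes made up between 0.190% and 0.438% of all TPM in the knockout and between 0.323% and 0.472% in the control.

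**Figure D1:**
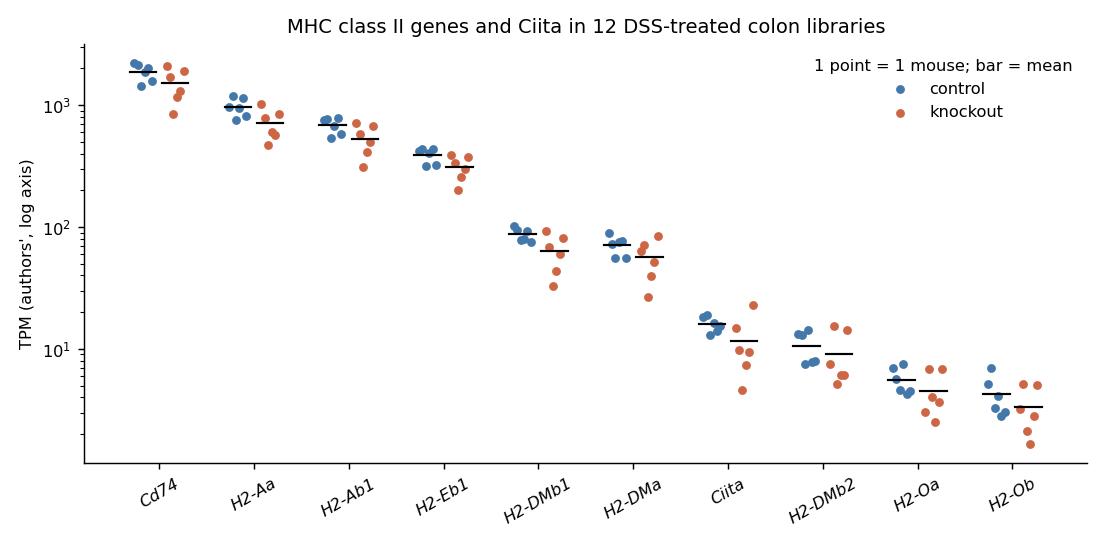
Level of each gene in TPM (log axis) in 6 control and 6 knockout colon libraries; points are mice and bars are means. The genotypes overlap for every gene, and the mean of the knockout lies below that of the control for all 10.

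All 10 members had a lower mean in the knockout than in the control, and none was called. Their log2 fold changes (knockout minus control) ran from -0.55 for H2-DMb1 to -0.30 for H2-DMb2 with a median of -0.42, where all tested genes had a median of -0.03 and 54.9% of them lay below 0. With edgeR (quasi-likelihood F test, Benjamini-Hochberg adjustment over all tested genes), 0 of 10 members passed 0.05. Of all tested genes 0.0556% passed, 0.0278% lower and 0.0278% higher, which is 4 and 4 genes (45 and 230 with library size as scaling, 19 and 33 with DESeq2 size factors). Adjusted p values ran from 0.108 for H2-Aa to 0.577 for H2-DMb2. At an unadjusted p under 0.05, 4 members (H2-Aa, H2-Eb1, H2-DMb1 and H2-Ab1) were lower, against 9.48% of all tested genes. No member separated the genotypes completely, as 0.639% of tested genes did in the lower and 0.882% in the higher direction. DESeq2, limma voom and the authors' deposited table also gave 0 members at an adjusted p under 0.05, with 5, 7 and 5 members at an unadjusted p under 0.05.

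The classical chain genes encode the peptide-binding molecules, H2-Aa and H2-Ab1 the alpha and beta chains of H2-A and H2-Eb1 the beta chain of H2-E. H2-Aa (ENSMUSG00000036594) ranged from 312 to 613 CPM (median 411) in the knockout and from 472 to 749.5 CPM (median 577) in the control. In CPM, 5 of the 6 knockout libraries lay below the lowest control, and replicate 1 lay inside the control range. Knockout replicate 6 was close to that control, replicate 3 (469.1 against 472.1 CPM). In the authors' TPM, knockout replicates 2 and 6 (788 and 839 TPM) were above control replicate 3 (761 TPM), so the count depended on scaling. The H2-Aa means were 424 ± 112 CPM in knockout mice and 605 ± 115 CPM in controls (SD, n = 6 each). The log2 fold change of H2-Aa was -0.51 ± 0.17 (SE) with an edgeR adjusted p of 0.108. Tested alone by exact two-sided permutation of log2 CPM, H2-Aa gave p = 0.0238. The exact p given here and for the other members are not adjusted over genes.

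H2-Ab1 (ENSMUSG00000073421) ranged from 220.5 to 461 CPM (median 333) in the knockout and from 357 to 553 CPM (median 465.7) in the control. In CPM, knockout replicates 2, 3, 4 and 5 were under every control, while replicates 1 and 6 were within the control range. The log2 fold change was -0.44 ± 0.17 (SE; edgeR adjusted p = 0.149; exact permutation p = 0.0346 for this gene alone, n = 6 each). H2-Eb1 (ENSMUSG00000060586) was between 171 and 299 CPM (median 235) in the knockout and between 256 and 372 CPM (median 307) in the control. Its knockout libraries spread least among the members, and all 6 knockout libraries were under the control mean. In CPM, 2 of them were within the control range. The H2-Eb1 log2 fold change of -0.41 ± 0.14 (SE) had an edgeR adjusted p of 0.113 and an exact permutation p of 0.0195. H2-Eb2, another class II beta chain gene of the region outside the member list, stood at -0.30 ± 0.33 (log2 fold change, SE; edgeR adjusted p = 0.637).

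Cd74 (ENSMUSG00000024610), the invariant chain gene, was the most abundant member. Its level ranged from 629 to 1402 CPM (median 976) in the knockout and from 999.7 to 1513 CPM (median 1364) in the control. Knockout replicates 3, 4 and 5 were under every control and replicates 1, 2 and 6 were not, so the groups overlapped. The log2 fold change was -0.39 ± 0.18 (SE; edgeR adjusted p = 0.229; exact permutation p = 0.0693). The Cd74 to H2-Aa ratio of CPM did not depend on library scaling, and its log2 value was 1.22 ± 0.14 in the knockout and 1.12 ± 0.14 in the control (SD, n = 6 each). That difference of 0.11 was within the spread between mice (exact permutation p = 0.210, 0.630 adjusted over 3 ratios).

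The H2-M genes encode the chaperone that edits the peptides bound by class II, with H2-DMa for its alpha chain and H2-DMb1 and H2-DMb2 for alternative beta chains. H2-DMb1 (ENSMUSG00000079547) ranged from 27.0 to 70.0 CPM (median 46.0) in the knockout and from 59.6 to 77.5 CPM (median 67.0) in the control. The 6 controls lay close together, while the knockouts spread over 2.59-fold from replicate 3 to replicate 1. In CPM, only replicate 1 of the knockout was within the control range. The log2 fold change of H2-DMb1 was -0.55 ± 0.19 (SE; edgeR adjusted p = 0.120; exact permutation p = 0.0152). H2-DMa (ENSMUSG00000037649) ranged from 17.7 to 47.2 CPM (median 34.2) in the knockout and from 34.9 to 54.9 CPM (median 45.1) in the control. Here 3 knockout libraries lay under every control, and knockout replicate 6 at 47.2 CPM lay above the control mean. The log2 fold change was -0.41 ± 0.21 (SE; edgeR adjusted p = 0.264; exact permutation p = 0.0844). In GENCODE vM21, 10.4% of the exonic bases of H2-DMa are shared with Brd2 on the opposite strand, and the sources used here do not say whether counting used strand.

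H2-DMb2 (ENSMUSG00000037548) differed from its neighbour in which libraries were high. Its level ranged from 4.35 to 11.1 CPM (median 5.21) in the knockout and from 5.79 to 10.8 CPM (median 8.31) in the control. The highest library of all was knockout replicate 2, and control replicates 3, 5 and 6 lay apart from replicates 1, 2 and 4, which were between 10.2 and 10.8 CPM. The log2 fold change was -0.30 ± 0.28 (SE; edgeR adjusted p = 0.577; exact permutation p = 0.238), and it was -0.50 without knockout replicate 2 and -0.45 without knockout replicate 6. The GENCODE vM21 transcripts of H2-DMb1 and H2-DMb2 are 92.8% identical over 1231 aligned bases, with an identical run of 221 bases, so how reads were split between them is uncertain. With both counted as 1 gene the log2 fold change was -0.52 (edgeR adjusted p = 0.130).

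H2-Oa and H2-Ob encode the chains of H2-O, which binds H2-M and limits peptide exchange and is best known from B cells. Both were the least abundant members, with 27 to 71 reads per library for H2-Oa and 40 to 176 for H2-Ob. H2-Ob (ENSMUSG00000041538) ranged from 2.17 to 6.74 CPM (median 3.90) in the knockout and from 4.08 to 9.79 CPM (median 5.13) in the control. Control replicate 2 was the highest and knockout replicate 4 the lowest, and the genotypes overlapped widely. Its log2 fold change was -0.43 ± 0.31 (SE; edgeR adjusted p = 0.443; exact permutation p = 0.193), and -0.22 without control replicate 2 and -0.28 without knockout replicate 4. H2-Oa (ENSMUSG00000024334) ranged from 1.47 to 3.83 CPM (median 2.31) in the knockout and from 2.68 to 4.36 CPM (median 3.10) in the control. Knockout replicates 2 and 6 were within the control range and the other 4 under it, and the log2 fold change was -0.38 ± 0.26 (SE; edgeR adjusted p = 0.411; exact permutation p = 0.126). Of its exonic bases 22.8% are shared with the lncRNA gene BC051537 on the opposite strand in GENCODE vM21. The log2 ratio of H2-Ob to H2-DMa (CPM), inhibitor over chaperone, was -2.95 ± 0.37 in the knockout and -2.96 ± 0.45 in the control (SD, n = 6 each; exact permutation p = 0.974, 0.974 adjusted over 3 ratios), a difference of 0.01 against ranges of -3.50 to -2.52 and -3.62 to -2.20. The sign of that difference turned when some single libraries were left out.

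Ciita (ENSMUSG00000022504), the transactivator, had the widest spread among the knockout mice. The knockout libraries held 41.4, 25.4, 14.05, 19.5, 24.6 and 57.9 CPM in replicates 1 to 6. The controls held 48.7, 50.9, 37.7, 45.6, 39.4 and 43.1 CPM. Knockout replicates 2 to 5 were under every control, replicate 1 was inside the control range and replicate 6 was above every control. The highest knockout library was 4.12 times the lowest, against 1.35 times in the controls, and the SD of log2 CPM was 0.74 against 0.17. The log2 fold change was -0.54 ± 0.28 (SE; edgeR adjusted p = 0.267; exact permutation p = 0.0498), and without knockout replicate 6 it was -0.82 (edgeR adjusted p = 0.0745). The gene-level counts do not tell the alternative Ciita promoters of dendritic cells, B cells and interferon gamma-treated cells apart, and 3.45% of the exonic bases of Ciita are shared with Dexi on the opposite strand in GENCODE vM21. Relative to H2-Aa the log2 ratio of CPM was -3.92 ± 0.51 in the knockout and -3.76 ± 0.26 in the control (SD, n = 6 each; exact permutation p = 0.504, 0.756 adjusted over 3 ratios).

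In several mice the whole set was low or high together. On the log2 scale, relative to each gene's mean over the 12 libraries, knockout replicates 3, 4 and 5 were below the mean for all 10 genes, with median deviations of -0.74, -0.58 and -0.40. Knockout replicates 1 and 6 were above the mean for 7 and 9 of the 10 genes, with medians of 0.21 and 0.23. Control replicates 1, 2 and 4 were above the mean for all 10. The summed level of the 14 B cell markers was also low in knockout replicates 3, 4 and 5, at 77.6, 69.0 and 93.9 CPM against 150.3, 165 and 175 CPM in replicates 1, 2 and 6. Among the controls it was lowest in replicate 3 at 71.1 CPM and ran from 114 to 182 CPM in the others. In control replicate 3 the class II median deviation was -0.08. Summed dendritic cell markers were at 120, 72.3 and 94.5 CPM in knockout replicates 3, 4 and 5 and at 100, 136 and 107 CPM in replicates 1, 2 and 6. Summed macrophage and monocyte markers were at 1721.5, 1331 and 1581 CPM against 1695.5, 2345 and 1850 CPM. The part of these cells in the class II values was not tested. Abundant genes weigh most in such sums. Means in knockout and control were 45.9 and 46.2 CPM for Ighm (B cell list) and 706 and 574 CPM for Lyz2 (macrophage list). For Fscn1 of the dendritic cell list they were 32.2 and 21.0 CPM. Depending on the gene, 3 to 5 of the 6 knockout libraries lay below every control in CPM. These counts depended on scaling: H2-Ab1 in knockout replicate 2 had 355.6 CPM against 356.8 in control replicate 3, but 575 against 536 TPM. In TPM, H2-Eb1 in knockout replicate 2 (337 against 319 in control replicate 3) and H2-DMb1 in knockout replicate 6 (81.3 against 75.7 in control replicate 6) were likewise not below every control. For each of the 10 members the SD of log2 CPM was larger in the knockout than in the control, and knockout replicate 3 was the lowest knockout library for 8 of them.

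**Figure D2:**
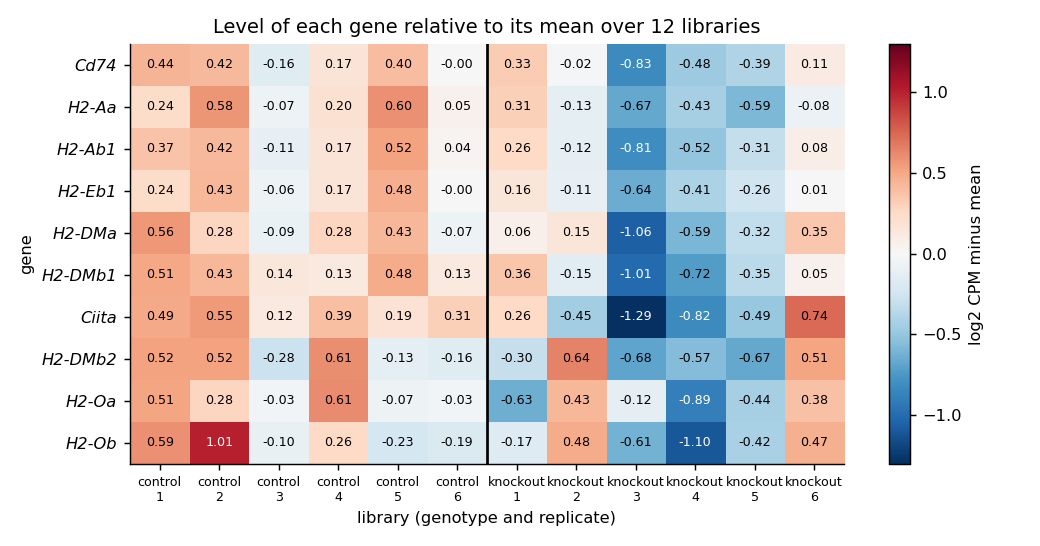
Deviation of each gene from its own mean over 12 libraries (log2 CPM), with controls left of the line and knockouts right. Knockout replicates 3, 4 and 5 are below the mean in all rows, and the H2-DMb2, H2-Oa and H2-Ob rows are above the mean in control replicates 1, 2 and 4 and in knockout replicates 2 and 6.

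The relations between members across mice were compared next. Cd74 followed H2-Aa closely over the 12 libraries (Pearson r = 0.94, permutation p = 1e-05, the smallest that 100000 resamples can give; Spearman rho = 0.91, permutation p = 1.40e-04). Within genotype the r was 0.95 in the knockout (exact permutation p = 0.0125) and 0.86 in the control (exact permutation p = 0.0444), and it was 0.93 without knockout replicate 3 and control replicate 5, the libraries farthest from the median of H2-Aa. Ciita and H2-Aa gave r = 0.78 (permutation p = 0.00244) and rho = 0.65 (permutation p = 0.0249), and r = 0.76 without the same 2 libraries. Within the knockout r was 0.77 (exact permutation p = 0.0764) and rho 0.89 (exact permutation p = 0.0333). Within the control, where Ciita varied less, r was 0.37 (exact permutation p = 0.433) and rho 0.43 (exact permutation p = 0.419). With genotype means subtracted r was 0.65 (permutation p = 0.0187). Knockout replicate 6 stood off it, with the highest Ciita of all libraries and an H2-Aa level below every control in CPM, though not in TPM.

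H2-Ob, of the H2-M inhibitor, was then set against the same chain gene. H2-Ob and H2-Aa gave r = 0.60 (permutation p = 0.0367) and rho = 0.48 (permutation p = 0.116), with 0.54 and 0.41 within knockout and control (exact permutation p = 0.265 and 0.397) and 0.71 without knockout replicate 3 and control replicate 5. With genotype means subtracted that relation gave r = 0.49 (permutation p = 0.103) and was no longer past the threshold. Adjusted over the 4 relations computed, of which these 3 are given, the Pearson permutation p values were 4.00e-05 for Cd74, 0.00325 for Ciita and 0.0367 for H2-Ob, each with H2-Aa.

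**Figure D3:**
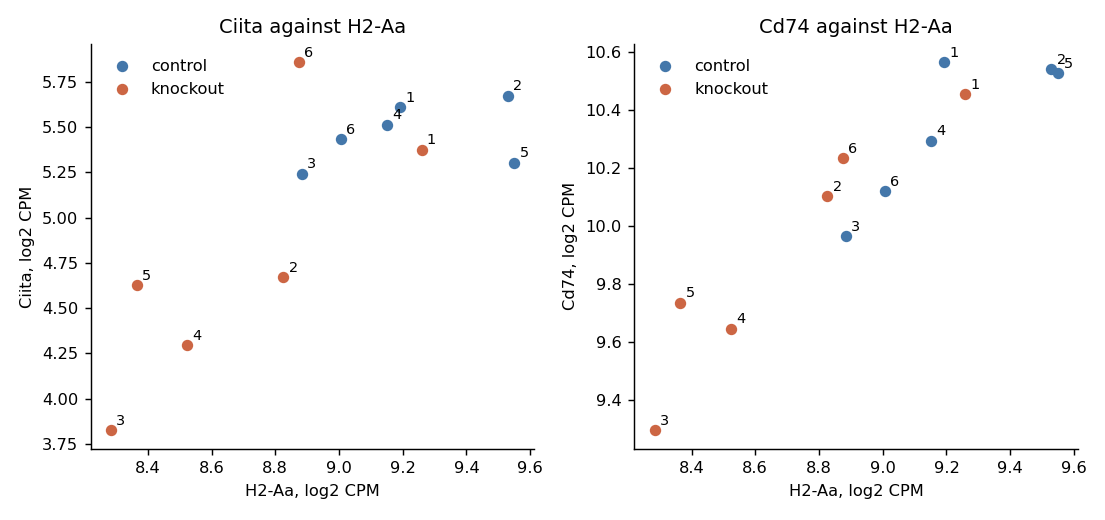
Log2 CPM of Ciita against H2-Aa (left) and of Cd74 against H2-Aa (right) in 12 libraries, with replicate numbers beside the points. Knockout replicate 6 has the highest Ciita, and Cd74 lies along H2-Aa in both genotypes.

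The genes most like H2-Aa and Ciita were not the same. Likeness was measured as Pearson r of log2 CPM over the 12 libraries after subtraction of genotype means, and it is a description. Nearest to H2-Aa among all tested genes were the members H2-Eb1 (0.94), H2-Ab1 (0.92) and Cd74 (0.92). Outside the members came Ankrd23 (0.87), the immunoglobulin genes Iglc3 (0.86), Ighm (0.85) and Ighg2b (0.83), and 9030025P20Rik (0.86). H2-Oa was the member least like H2-Aa (0.10). Nearest to Ciita were no class II genes but Irf8 (0.91), Socs1 (0.91), Irf1 (0.90), Gbp2 (0.90) and Wars1 (0.89). Genes known to be inducible by interferon gamma, such as Socs1, Irf1, Gbp2 and Wars1, are among these. Among members Ciita was most like H2-DMb1 (0.84) and H2-DMa (0.83). Libraries share depth and cell makeup, so such likeness says nothing of shared control.

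Genes of the factors that act with or on Ciita were counted next. Of 14 transcription factor genes of the pathway, 0 passed in edgeR's test (DESeq2 called 0 lower and 2 higher), 1 (Nfyc) was lower and 2 (Spi1 and Prdm1) were higher at an unadjusted p under 0.05, and the median log2 fold change was 0.04 against -0.03 for all tested genes. Without knockout replicate 4 edgeR called 2 of the 14 higher, and leaving out control replicate 4 gave 2. Over all tested genes 870 and 728 were called higher in those fits, and 1103 with DESeq2. At an unadjusted p under 0.05 in edgeR's test, 9.48% of all tested genes were lower and 13.1% higher. The RFX subunit genes Rfx5, Rfxank and Rfxap stood at -0.11 ± 0.11, -0.17 ± 0.11 and 0.13 ± 0.13 (log2 fold change, SE). Irf1, which carries the interferon gamma signal to Ciita, stood at 0.01 ± 0.18. Prdm1, which encodes Blimp-1, a repressor of Ciita in plasma cells, had the smallest p of the list at 0.58 ± 0.13 (edgeR adjusted p = 0.0540). Interferon gamma itself was scarce, with Ifng between 0.330 and 5.18 CPM in the knockout and between 0.123 and 3.69 CPM in the control.

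Interferon gamma-responsive genes lay on the other side of 0 from the class II genes. All 15 measured genes of that list were above 0 with a median of 0.46, 0 passed in edgeR's test or with DESeq2, and 1, Gbp5 (1.21 ± 0.46, log2 fold change, SE), was higher at an unadjusted p under 0.05, against 13.1% of all tested genes. Voom with quality weights called 4 of them higher (median 0.81), and edgeR called 2 higher without control replicate 4 (median 0.66). Over all tested genes those 2 settings called 1339 and 279 lower and 1549 and 728 higher. With quality weights, 4 of 7 costimulation, 6 of 8 endothelial and 8 of 15 macrophage and monocyte genes were also called higher. So were 3 of 12 processing, 2 of 14 transcription factor, 4 of 8 neutrophil, 2 of 9 follicle and 1 of 14 T cell genes. In that setting 1 macrophage, 1 dendritic cell and 1 epithelial gene were called lower, and 0 of 14 B cell genes were called. The most abundant interferon gamma-responsive genes were the GTPase genes Iigp1 (0.46 ± 0.48) and Gbp2 (0.66 ± 0.36). Mice varied widely: Gbp2 ran from 109.6 to 591 CPM in the knockout and from 133 to 312 CPM in the control. Among 6 genes of interferon gamma, its receptor and the pathway below it, 0 passed by either tool, 1 (Socs1) was higher at an unadjusted p under 0.05, and the median was 0.14, with Ifngr1 at 0.13 ± 0.12 and Jak1 at 0.15 ± 0.08. The difference between this response and the class II genes was not tested.

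Genes that sit beside class II in the genome or work in the class I pathway had values nearer to 0. RefSeq (GRCm38.p6) places 13 protein-coding genes from H2-Oa to H2-Eb1 on chromosome 17, 8 of them members and 5 not. Those 5 were Brd2, a chromatin reader, and Psmb9, Tap1, Psmb8 and Tap2, which make and carry peptides for class I, and their log2 fold changes ran from -0.15 ± 0.22 (Psmb9) to 0.16 ± 0.16 (Tap2). The 8 members of the block ran from -0.55 to -0.30, and Cd74 on chromosome 18 and Ciita on chromosome 16 lay in the same span. Of 16 class I presentation genes 0 passed in edgeR's test or with DESeq2, and the median was -0.04. Of these 16, 0 had an unadjusted p under 0.05 in edgeR's test, where 9.48% of all tested genes were lower and 13.1% higher. B2m, the light chain of class I, stood at -0.04 ± 0.15 and the heavy chain gene H2-D1 at 0.16 ± 0.11. Nlrc5, the class I counterpart of Ciita, stood at 0.04 ± 0.27.

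**Figure D4:**
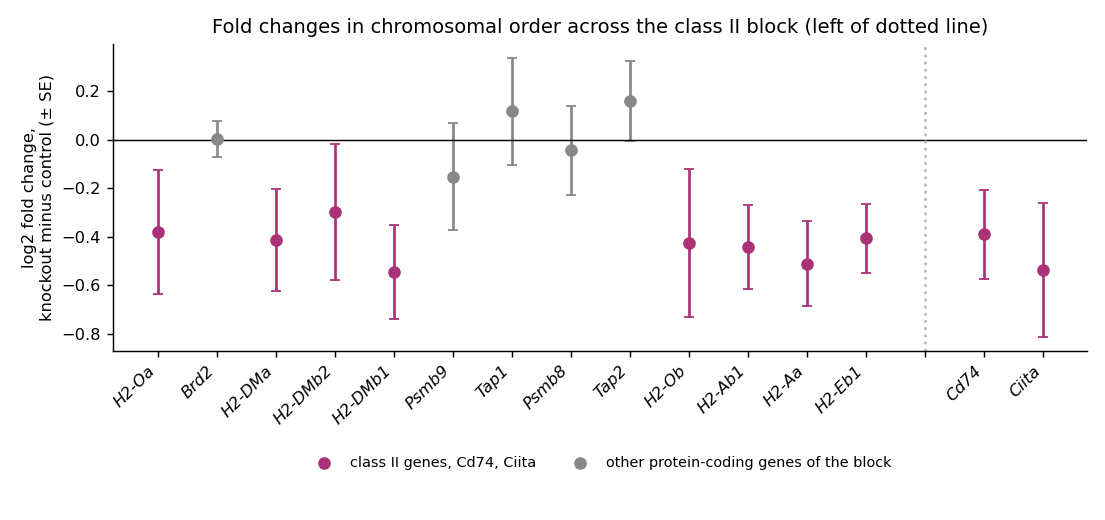
Log2 fold change (knockout minus control, ± SE, 6 against 6 mice) of the protein-coding genes of the class II block in chromosomal order, not to distance, with Cd74 and Ciita at the right. The 8 class II genes lie between -0.55 and -0.30, and the 5 genes between them lie from -0.15 to 0.16.

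The proteases and helpers of class II peptide supply lay above 0. Of 12 processing genes 10 were above 0 with a median of 0.19, 0 passed in edgeR's test (DESeq2 called 0 lower and 3 higher), and 4 (Lgmn, Marchf1, Ctsl and Ctsb) had an unadjusted p under 0.05 on the higher side. Ctsb, a lysosomal cathepsin and the most abundant of them, stood at 0.28 ± 0.10, and Sppl2a, which clears the last membrane stub of the invariant chain, at -0.12 ± 0.19 (log2 fold change, SE). Marchf1, which encodes a ubiquitin ligase that removes class II from the cell surface, was at 0.83 ± 0.28, with 18.3 ± 5.57 CPM in knockout mice against 10.3 ± 3.88 CPM in controls (SD, n = 6; edgeR adjusted p = 0.101). Of 7 tested costimulation genes 6 were above 0 with a median of 0.63; Cd274, which encodes PD-L1, stood at 0.96 ± 0.27 and Icosl at -0.06 ± 0.10. None of the 7 passed in edgeR's test, 4 (Cd80, Cd86, Cd274 and Tnfsf9) had an unadjusted p under 0.05, and DESeq2 called 0 lower and 4 higher. Without knockout replicate 4 edgeR called 2 processing and 4 costimulation genes higher. The counts were 1 and 4 without control replicate 4, and leaving out control replicate 6 gave 0 and 2. Over all tested genes the higher calls were 870, 728 and 272 in those fits, and 1103 with DESeq2. At an unadjusted p under 0.05 in edgeR's test, 13.1% of all tested genes were higher.

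Markers of the cells that carry class II did not share a direction. The 15 macrophage and monocyte markers were above 0 in 14, with a median log2 fold change of 0.44, and their summed level was 1331 to 2345 CPM in knockout libraries against 944 to 1639.7 CPM in controls. Lyz2 stood at 0.30 ± 0.18 and C1qb at 0.44 ± 0.14 (log2 fold change, SE). The 12 tested dendritic cell markers had a median of 0.07, with Itgax at 0.09 ± 0.18 and Fscn1 at 0.61 ± 0.26, and Xcr1, the receptor that marks cross-presenting dendritic cells, had the lowest value at -0.94 ± 0.25 (edgeR adjusted p = 0.0618). Their summed level, 14 genes in all with Ccl17 at 0 reads in at least 1 library, was 72.3 to 136 CPM in knockout libraries against 57.1 to 116 CPM in controls. The 14 B cell markers were below 0 in 12 with a median of -0.13, and their summed level was 69.0 to 175 CPM in knockout libraries against 71.1 to 182 CPM in controls. Cd79a, a chain of the B cell receptor complex, stood at 0.00 ± 0.27 and Ighm at -0.01 ± 0.30. In edgeR's test 0 genes of these 3 lists passed. Of all tested genes 9.48% were lower and 13.1% higher at an unadjusted p under 0.05 in that test. At an unadjusted p under 0.05 the macrophage list had 1 lower (Cx3cr1) and 7 higher genes, the dendritic cell list 2 lower (Xcr1 and Cd83) and 2 higher (Fscn1 and Clec10a), and the B cell list 1 lower (Fcer2a). DESeq2 called 1 lower and 6 higher of the macrophage list, 1 lower and 1 higher of the dendritic cell list and 1 lower and 0 higher of the B cell list. Without knockout replicate 4 edgeR called 1 lower and 3 higher macrophage genes, and 1 lower and 0 higher dendritic cell genes. Leaving out control replicate 4 gave 1 lower and 3 higher macrophage and 1 lower and 1 higher dendritic cell genes. Leaving out control replicate 6 gave 1 lower and 1 higher macrophage genes and no dendritic cell gene. Over all tested genes those edgeR fits called 402, 279 and 101 lower and 870, 728 and 272 higher. DESeq2 called 429 of all tested genes lower and 1103 higher. The part of cell makeup in the class II values was not tested.

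Other cell lists are given for the same libraries. The 12 epithelial markers had a median of -0.21 with 11 below 0, Muc2 at -0.21 ± 0.17 and Krt8 at -0.25 ± 0.11, and a summed level of 16038 to 21453 CPM in knockout libraries against 17615 to 23899 CPM in controls. The 7 plasma cell markers had a median of -0.03 (Igha -0.03 ± 0.18, Jchain -0.25 ± 0.20) and a summed level of 4195 to 5331 CPM in knockout libraries against 2653 to 6086 CPM in controls. The 14 T cell and innate lymphoid markers had a median of -0.08 (Cd4 -0.06 ± 0.21) and a summed level of 83.6 to 115 CPM in knockout libraries against 82.2 to 133 CPM in controls. Neutrophil markers were above 0 in 8 of 8 with a median of 1.45 (Ly6g 0.75 ± 0.34, S100a9 1.81 ± 0.75) and a summed level of 253 to 1167 CPM in knockout libraries against 138 to 575 CPM in controls. Endothelial markers were above 0 in 8 of 8 with a median of 0.62 (Plvap 0.67 ± 0.16, Pecam1 0.60 ± 0.16) and a summed level of 389.9 to 752 CPM in knockout libraries against 273 to 416 CPM in controls. Of 9 tested genes of lymphoid follicles the median was 0.21, with Ccl21a at 0.23 ± 0.17 and the B cell attractant Cxcl13 at 2.07 ± 0.46. Across these 6 lists 0 genes passed in edgeR's test. Of all tested genes 9.48% were lower and 13.1% higher at an unadjusted p under 0.05 in that test. At an unadjusted p under 0.05 there were 5 lower epithelial, 7 higher endothelial and 6 higher neutrophil genes, besides Tnfrsf17 (lower), Cd3g (lower), Foxp3 (higher) and Cxcl13 (higher). DESeq2 called 0 lower and 6 higher endothelial, 0 lower and 2 higher neutrophil, 1 lower and 0 higher epithelial, 0 lower and 1 higher T cell and 0 lower and 1 higher follicle genes, and 0 lower and 0 higher of the plasma cell list. Without knockout replicate 4 edgeR called 5 endothelial, 2 neutrophil, 1 T cell and 1 follicle genes higher. Without control replicate 4 it called 6 endothelial, 4 neutrophil, 1 T cell and 1 follicle genes higher. Leaving out control replicate 6 gave 2 endothelial, 0 neutrophil, 0 T cell and 1 follicle genes. Over all tested genes the higher calls were 870, 728 and 272 in those fits. DESeq2 called 429 of all tested genes lower and 1103 higher. The medians of the class I, plasma cell, T cell, B cell, dendritic cell and transcription factor lists lie near 0. Their sign, and that of the follicle list (median 0.21), depended on the scaling or on single libraries. The part of any of these cells in the class II values was not tested.

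**Figure D5:**
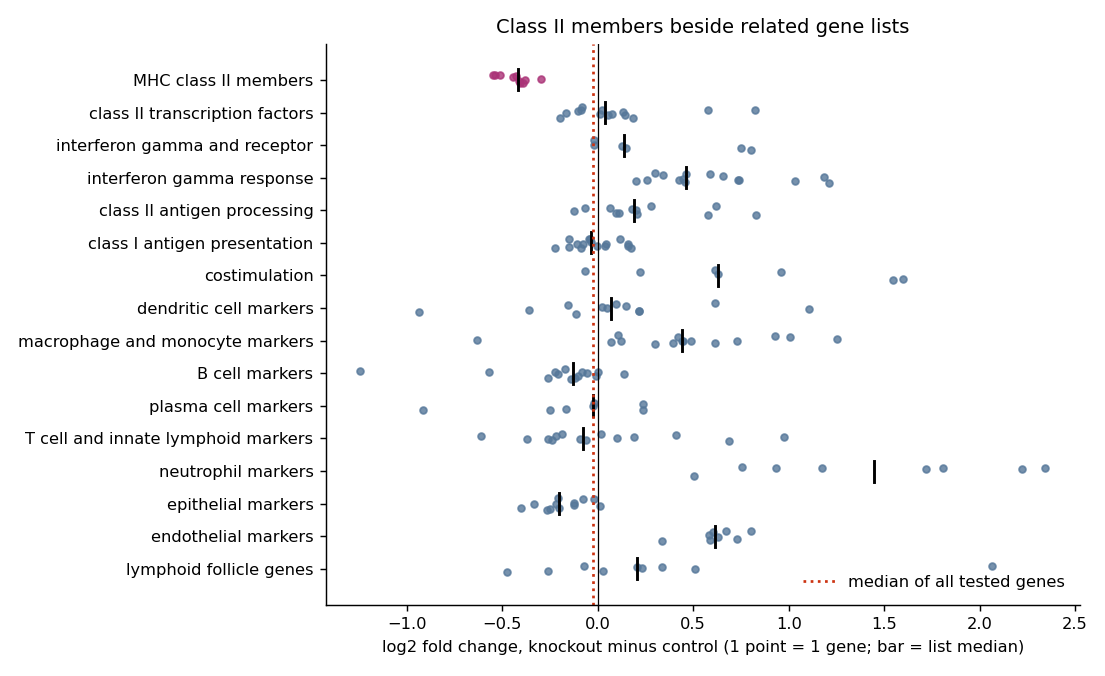
Log2 fold change (knockout minus control) of each class II member and of each gene of 15 related lists; bars are list medians and the dotted line is the median of all tested genes. The 10 class II members lie together at -0.55 to -0.30, and the 15 interferon gamma-responsive genes lie above 0.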

How the data were processed

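Colon RNA of 6 knockout and 6 littermate control mice, all DSS-treated, was grouped by the labels. Per the labels' protocols, it was taken with Trizol and sequenced with a SMARTER mRNA-Seq kit. Per the file headers, the authors deposited read counts, TPM per library and per genotype mean, a log2 fold change (of mean TPM) and p-values of an unnamed test. The submitters' processing notes list GRCm38, mm10 and mm39 without roles, and the sources used here give no aligner, counter or strand setting.

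Counts were tested with edgeR 4.0.16 in R 4.3.3 after filterByExpr (minimum count 10, total 15) and TMM scaling, by the quasi-likelihood F test without covariates, adjusted over 14393 genes at 0.05. Log2 CPM used a prior count of 2. Exact permutation p for 6 against 6 cannot go below 0.00216. Whether same-numbered mice are pairs is not stated. The procedure was tested on simulated data with larger fold changes than those of the members and no outlying library. That test therefore does not show whether changes of the members' size would be found.

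The members, lists, relations and ratios were chosen with earlier results of these data known. All members and the 2 genes of highest mean CPM in each list are named, and so are the 5 non-members most like H2-Aa and Ciita. Of these, 2 list genes and 1 relation are not reported here. Other named genes were chosen after their values were seen. Alternatives were other scalings and filters, DESeq2 1.42.0, limma 3.58.1 (voom, quality weights, trend on log2(TPM + 1)), robust fitting, a replicate block, summed H2-DMb genes and each library left out. Promoters came from RefSeq (GRCm38.p6), transcripts from GENCODE vM21.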

Additional observations from a re-analysis of the deposited data

How the results depend on the processing

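Under all 24 alternatives 0 members passed and all log2 fold changes of members kept their sign. Each alternative tested all 10 members, save 9 where the H2-DMb genes were summed. The smallest adjusted p was 0.0531, for H2-Aa with DESeq2. Between 3 and 7 members had an unadjusted p under 0.05, and the share of all tested genes at that threshold was taken only for the main edgeR fit. The count over all genes depended far more on single libraries and tests: edgeR called 4 lower and 4 higher genes with all libraries, 402 and 870 without knockout replicate 4, 279 and 728 without control replicate 4, 101 and 272 without control replicate 6, and 2 to 3 lower and 0 higher without each of the other libraries. DESeq2 called 429 and 1103, voom 19 and 30, voom with quality weights 1339 and 1549, robust fitting 21 and 32, the TPM trend 48 and 355, DESeq2 size factors 19 and 33 and library size scaling 45 and 230 lower and higher genes. Of the list genes, library size scaling called 1 transcription factor, 2 costimulation, 1 macrophage, 2 endothelial and 1 follicle gene higher. The TPM trend gave the same numbers for these lists and 1 higher neutrophil gene, and voom called 1 costimulation gene higher. The difference between genotypes in the log2 ratio of H2-Ob to H2-DMa was near 0. That difference changed sign with single libraries left out (range -0.13 to 0.16), and the cause was not tested. The relation of H2-Ob with H2-Aa was r = 0.49 with genotype means subtracted (permutation p = 0.103), no longer past the threshold; the cause was not tested. With the replicate number as a block, member log2 fold changes ran from -0.69 to -0.36, 0 passed, and the block gave 1 call over all genes; same-numbered libraries correlated at -0.50 to 0.08 in their deviations, so the numbers were not taken as pairs. H2-Oa and H2-Ob had the fewest reads of the members, and how much of their spread is counting error was not tested.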
